A study of Mus musculus with 45 samples.

Results

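Follicular B cells that had been stimulated for 44 h through TLR4 with lipopolysaccharide (LPS) were compared with cells stimulated through the B cell receptor with anti-IgM, all on plain OP9 stroma without an added Notch ligand. The comparison takes 3 libraries per stimulus, 6 of the 45 libraries of the series, and every gene of the deposited table, of which 12146 of 30317 symbols had enough signal to be tested. Follicular B cells from the spleen were plated on OP9 stroma, a line from bone marrow, and parallel cultures used OP9-DL1, which carries the Notch ligand Delta-like 1. Cultures ran for 20, 44 or 68 h, and viable cells were sorted for polyA RNA sequencing. Every group had the genotype B6.Blimp1GFP/+, that is, mice heterozygous for a GFP allele of Blimp1, the gene of a plasma cell transcription factor. LPS came from Salmonella enterica and the anti-IgM was an F(ab')2 fragment, each used at 10 µg/mL. The series has no unstimulated library at 44 h, so a gene higher with LPS cannot be told apart from a gene lower with anti-IgM.

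LPS bound by MD-2 (gene Ly96) brings TLR4 molecules together, and the receptor then signals through MyD88 to NF-kB and through TRIF to interferon genes. Mouse B cells answer LPS by dividing, secreting antibody and switching to IgG3 and IgG2b. Crosslinked IgM instead acts through Src-family kinases, Syk and phospholipase C gamma, which raise calcium for NFAT, activate Ras and ERK for the Egr genes and reach NF-kB. Anti-IgM alone makes B cells grow and divide but is a weak signal for class switching without T cell help.

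Values are transcript levels as TPM (summing to at most 1000000 in a library) divided by a size factor per library, called scaled TPM. Differences are log2(scaled TPM + 1) with LPS minus the same with anti-IgM, followed by a standard error (SE) and a Benjamini-Hochberg adjusted p from limma. Folds are these differences with the log2 undone, so they include the added 1 and are not ratios of the listed levels. Genes with an adjusted p below 0.05 are named as called. To 3 significant digits, the libraries held 8090000, 7850000 and 9880000 estimated reads for LPS and 29100000, 5880000 and 7560000 for anti-IgM. Correlations of log2 values across genes were 0.967 to 0.977 between libraries of the same stimulus and 0.915 to 0.933 between stimuli. Actb, which exceeds 10000 TPM in some libraries at 20 and 68 h, measured 824 to 1775 TPM in these 6. Dll1 was listed at 0 to 0.860 TPM. The labels do not say that replicates came from separate animals or cultures, so p-values measure the spread between these samples.

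In the model of 12146 genes the stimuli differed for 5172 (42.6%), with 2702 (22.2%) higher and 2470 (20.3%) lower with LPS. A called difference of at least 2-fold was found for 969 genes higher (7.98%) and 1013 genes lower (8.34%) with LPS, 16.3% together, and one of at least 8-fold for 28 (0.231%) and 42 (0.346%), 0.576% together. The median difference of all genes tested was -0.05. On TPM as deposited that median was -0.28 and 1766 called genes were higher against 3728 lower, and in the authors' deposited log2 values it was -0.20 with 2190 against 3126. The direction of small differences therefore depends on the scaling, and a list is read below against the median and the shares of all genes. A model with all 45 libraries, which pools the spread of every time point, called 1478 genes, of which 1471 were called in the same direction with the 12 libraries at 44 h. Myc, Nr4a1, Tlr4, Jun, Ets1 and Plk1 are among the genes described below that it did not call. Differences of genes listed near 0 in a group are understated on this scale, as for Il10, which reaches 5.96 with a pseudocount of 0.1.

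**Figure D1:**
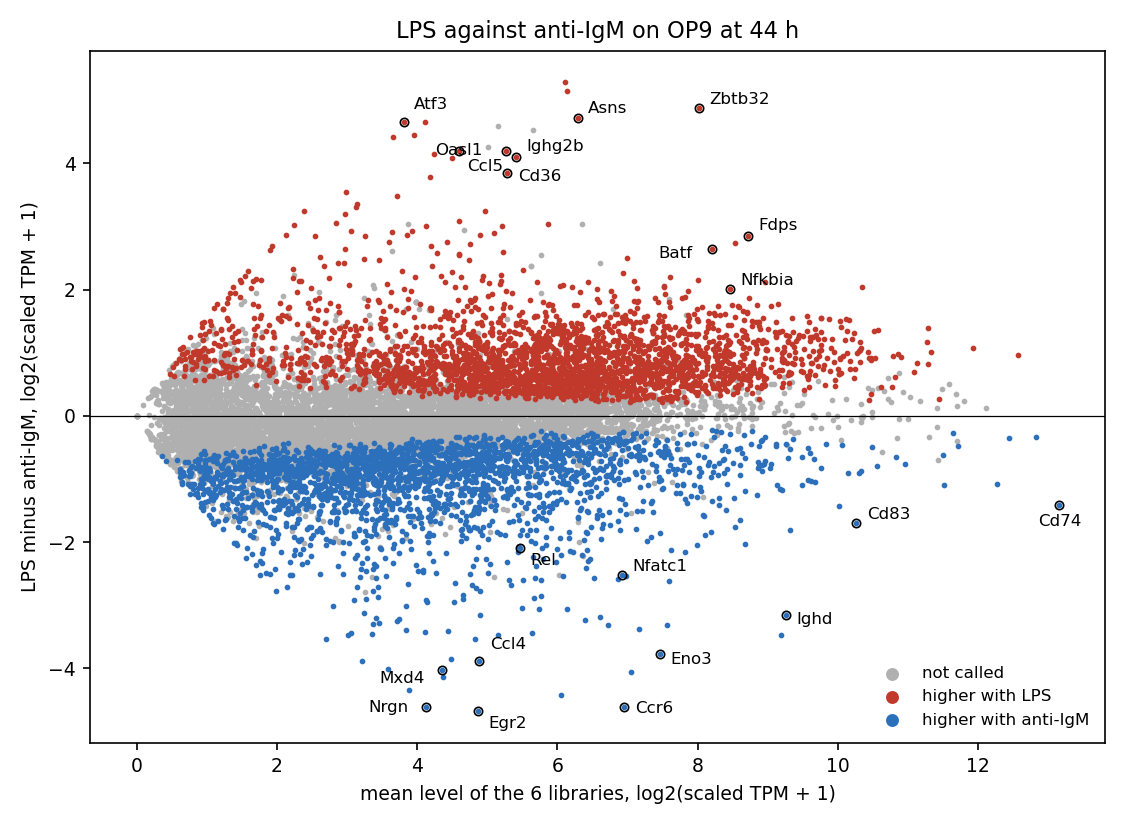
Each point is 1 of 12146 genes; the horizontal axis is the log2 mean level of the 6 libraries in scaled TPM + 1 and the vertical axis the LPS minus anti-IgM difference in log2(scaled TPM + 1), in red for 2702 genes called higher with LPS and blue for 2470 called higher with anti-IgM. Zbtb32 lies near the upper edge with a difference of 4.87, and Egr2 and Ccr6 at the lower edge with -4.68 and -4.62.

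The receptors themselves were lower with LPS or did not pass the test. Tlr4 measured 2.55, 3.15 and 2.54 scaled TPM with LPS and 6.31, 5.85 and 4.31 with anti-IgM (difference -0.78, SE 0.22, adjusted p = 0.012, but adjusted p = 0.13 after quantile normalization). Cd180, a TLR4-related receptor of B cells, was lower with LPS in the same way (12.2, 12.3 and 9.97 against 30.9, 26.2 and 33, difference -1.31). All 3 anti-IgM libraries lay above all 3 LPS libraries for both genes. Of 25 tested genes of LPS sensing, 2 were higher and 12 lower with LPS (median -0.10, and 0.10 after quantile normalization). Tlr7, a receptor for single-stranded RNA, differed by -1.68, Sigirr, an inhibitor of the family, by -1.65, and Ticam2, the adaptor that joins TRIF to TLR4, by -1.29. Ly96 went the other way, with a mean of 15.8 ± 5.1 scaled TPM (SD, n = 3) with LPS against 5.95 ± 1.8 with anti-IgM (difference 1.25, adjusted p = 0.014). Its call was lost without replicate 2 of either stimulus (adjusted p = 0.057 each). Cd14, a co-receptor that hands LPS to TLR4, was listed at 0 to 0.316 scaled TPM in the 6 libraries and was not tested.

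Components of the B cell receptor pathway were mostly higher with anti-IgM: of 30 genes 20 were lower and 1 higher with LPS (median -0.72). Cd79a, a signalling chain of the receptor, measured 583, 564 and 537 scaled TPM with LPS and 1455, 1479 and 1584 with anti-IgM (difference -1.42, SE 0.08, adjusted p = 1.1e-07). Vav3, an exchange factor downstream of Syk, differed by -3.13 (1.51, 0.852 and 0.519 against 12.2, 17.4 and 18.4), and Itpkb, an inositol phosphate kinase, by -1.53. Fyn, a Src-family kinase, was lower with LPS, with a wide spread among the anti-IgM libraries (4.95, 5.03 and 3.03 against 13, 48.1 and 35.8, difference -2.48). Syk was the gene called in the other direction, at 89.3 ± 9.1 against 66.7 ± 6.8 scaled TPM (difference 0.41, adjusted p = 0.024), and it was not called on TPM as deposited (0.14, adjusted p = 0.44).

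Genes that the B cell receptor induces early were mostly higher with anti-IgM at 44 h. Egr2, a zinc finger factor of the ERK pathway that also restrains lymphocytes, was listed at 0.836, 1.3 and 1.46 scaled TPM with LPS and at 51, 58 and 56.5 with anti-IgM (difference -4.68, SE 0.26, adjusted p = 1.4e-07), a 25.7-fold distance and the lowest value of all genes tested. Egr1 measured 3.93, 5.14 and 7.25 against 29.8, 28.1 and 32.2 (difference -2.30), and Egr3 differed by -2.20. Their corepressor Nab2 differed by -2.45 and Tagap, a GTPase regulator of activated lymphocytes, by -2.50. Nfatc1, the NFAT family member that calcium signals switch on, measured 36.2, 33.8 and 35 against 193, 215 and 210 (difference -2.52, adjusted p = 1.1e-07). Nr4a1, the nuclear receptor also known as Nur77, had levels of 52.7, 54.1 and 45.9 with LPS and 120, 111 and 124 with anti-IgM (difference -1.20). Nr4a3 was near the lower limit at 0.173 to 0.729 and 1.51 to 1.94 scaled TPM, and its call (-0.87) was lost without any of 5 of the 6 libraries (adjusted p from 0.053 to 0.097). In all of these genes the 2 stimuli did not overlap, as was true of 54.9% of genes tested. Of 23 such genes tested from a list of 27, 16 were lower and 2 higher with LPS (median -1.20). The 2 were Jun, an AP-1 subunit, with 36.6 ± 7.6 against 9.33 ± 0.31 scaled TPM (difference 1.84), and Myc with a difference of 0.94.

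NF-kB genes were found on both sides. Several inhibitors that feed back on the pathway were higher with LPS: Nfkbia, which encodes IkB alpha, measured 561, 521 and 600 scaled TPM against 138, 121 and 158 (difference 2.01, SE 0.12, adjusted p = 2.2e-07). Nfkbiz, an atypical IkB that LPS induces, measured 53.8, 53.1 and 70.7 against 6.87, 7.4 and 6.77 (difference 2.90), Tnip3, a partner of A20, differed by 2.15, and Tnfaip3, which encodes A20, by 0.67 (0.41 and not called on TPM as deposited). Rel, the c-Rel subunit that B cells need for division, went the other way with 13.5, 14.3 and 20 against 77.2, 72.9 and 62.5 (difference -2.10, adjusted p = 6.3e-07). Across the 19 genes, 7 were higher and 6 lower with LPS (median -0.37), and 4 were higher and 8 lower on TPM as deposited (median -0.64). The start of Rel carries a match to a kB motif, taken as GGG, any 2 bases and TTTCC and searched on both strands of the 300 bases around each start. It is shown because Rel had the largest difference among called genes of this list that hold a match. Nfkbiz and Tnip3 differed more, but no match was found for them in the promoters searched. The match was in 2.13% of tested genes, in 2.24% of those higher with LPS and in 2.11% of those lower. The 150 bases before the RefSeq start of Rel (GRCm38.p6, chr11:23770970-23771119, minus strand) are written 5′ to 3′ with the match, here as its reverse complement, in capitals.
Rel: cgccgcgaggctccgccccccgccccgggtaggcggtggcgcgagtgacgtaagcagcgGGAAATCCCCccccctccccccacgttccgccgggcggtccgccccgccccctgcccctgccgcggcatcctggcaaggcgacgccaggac

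**Figure D2:**
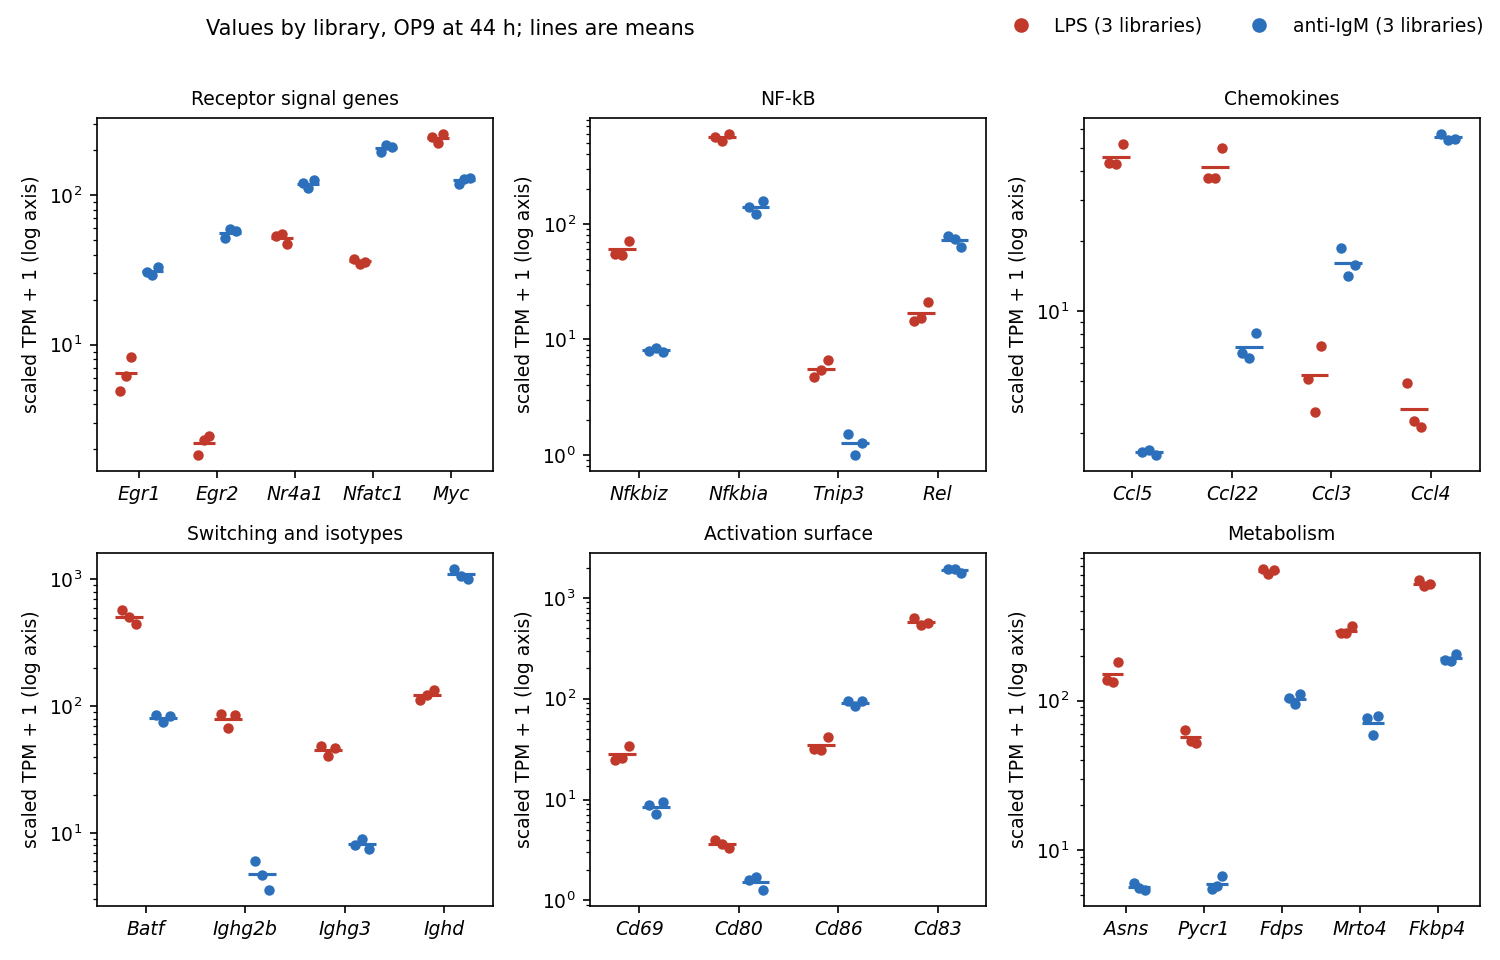
Points are the 3 LPS libraries (red) and 3 anti-IgM libraries (blue) at 44 h for 26 genes in 6 panels, lines are group means, and the vertical axis is scaled TPM + 1 on a log scale. Nfkbia and Nfkbiz are high with LPS while Rel, Egr1, Egr2 and Ccl4 are high with anti-IgM, and no pair of groups overlaps in these genes.

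Interferon-stimulated genes were higher with LPS, 16 of 33 tested, with 2 lower (median 0.61, and 13 and 5 with a median of 0.37 on TPM as deposited). Oasl1, of the oligoadenylate synthetase family, measured 66.8, 68.3 and 80.4 scaled TPM with LPS and 3.6, 3.25 and 2.19 with anti-IgM (difference 4.19, SE 0.19, adjusted p = 3.9e-08). Ifit1, which binds viral RNA caps, measured 34.9, 27.4 and 36.3 against 1.3, 2.23 and 0.928 (difference 3.79). Isg15, a ubiquitin-like modifier, measured 111, 106 and 90.3 against 12.3, 10 and 12.4 (difference 3.04), and Ifih1, the RNA sensor MDA5, differed by 2.28. Stat2 and Zbp1 were the 2 lower genes, with differences of -0.76 and -0.82. The interferon response element, to which factors downstream of the interferon receptor bind, was searched in the promoters on both strands as GAAA, any 2 bases and GAAA. It was found in 8 of the 13 interferon genes higher with LPS that have a RefSeq promoter (61.5%), in 7 of the 12 that were not (58.3%), and in 3.84% of tested genes. The shares in the genes higher with LPS and in the others of the list were thus close. Ifit1 is shown because it had the largest difference among called genes of this list that hold a match, and Oasl1, which differed more, had none in the promoters searched. The 150 bases before the start of Ifit1 (GRCm38.p6, chr19:34640739-34640888, plus strand) follow, with 2 matches in capitals as reverse complements.
Ifit1: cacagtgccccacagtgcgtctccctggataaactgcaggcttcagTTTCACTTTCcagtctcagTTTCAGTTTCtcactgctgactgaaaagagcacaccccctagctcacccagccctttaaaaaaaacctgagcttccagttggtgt

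The matches of 4 other interferon genes that were higher with LPS are given as 30 bases each, with every base of a full match in capitals, for comparison of the letters around it. Gbp2 has 1 match in its stretch, Bst2 and Oas1a have 2 that overlap, and Isg15 has 3 that overlap. They lie at chr4:156200871-156200900 (Isg15, minus strand), chr3:142620594-142620623 (Gbp2, plus strand), chr8:71537583-71537612 (Bst2, minus strand) and chr5:120907526-120907555 (Oas1a, minus strand). Gbp2, a guanylate-binding protein, differed by 2.05 between stimuli, Bst2, the antiviral tether tetherin, by 1.85 and Oas1a, of the oligoadenylate synthetases, by 1.33.
Isg15: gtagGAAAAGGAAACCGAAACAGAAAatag
Gbp2: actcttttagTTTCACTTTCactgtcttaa
Bst2: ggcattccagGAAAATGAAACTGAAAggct
Oas1a: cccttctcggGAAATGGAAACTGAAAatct

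Secreted factors separated by stimulus. Ccl5, a chemokine for T cells, measured 42, 41.8 and 50.7 scaled TPM with LPS and 1.48, 1.53 and 1.42 with anti-IgM (difference 4.20, SE 0.38, adjusted p = 4.2e-06), and Ccl22, a ligand of CCR4, 36.3, 36.1 and 49.2 against 5.64, 5.29 and 7.08 (difference 2.56). Ccl4 and Ccl3, which draw T cells and macrophages, had the reverse pattern: Ccl4 measured 3.9, 2.37 and 2.18 against 56.5, 53.1 and 53.8 (difference -3.89) and Ccl3 4.13, 2.69 and 6.08 against 17.5, 13.1 and 14.8 (difference -1.65). Of 8 chemokines tested from 14 listed, 4 were higher and 2 lower with LPS. Il10, which dampens inflammation, was listed at 5.66, 6.69 and 10 scaled TPM with LPS and at 0.0645, 0 and 0 with anti-IgM (difference 3.02, adjusted p = 1.9e-06). Il6 was listed at 3.93, 8.3 and 7.98 against 0.0699, 0 and 0 (difference 2.86). Lta, lymphotoxin alpha, differed by 1.87 and Tnf by 1.31, while Csf1, the macrophage growth factor, was higher with anti-IgM (1.96, 1.89 and 1.8 against 17.2, 19 and 17.3, difference -2.71). Of 18 cytokine genes tested from 32 listed, 6 were higher and 5 lower with LPS (median -0.17, but -0.41 on TPM as deposited and -0.009 after quantile normalization).

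Activation markers did not move as a block. Cd69, an early activation antigen, was higher with LPS (23.6, 24.9 and 32.7 against 7.86, 6.21 and 8.48 scaled TPM, difference 1.72, adjusted p = 6.4e-05), as were Cd40 (166 ± 3.1 against 65 ± 11, difference 1.35) and Cd80 (2.94, 2.59 and 2.32 against 0.589, 0.699 and 0.277, difference 1.26). Cd86, the other ligand of CD28, was higher with anti-IgM (30.9, 30 and 40.8 against 93, 83.1 and 93.7, difference -1.39, adjusted p = 3.2e-05). Cd83, a stabiliser of surface MHC class II, was abundant with both and higher with anti-IgM (623, 539 and 566 against 1939, 1946 and 1745, difference -1.70). Plaur, the urokinase receptor, and Tnfrsf18, which encodes GITR, differed by -2.88 and -2.86. Of the 24 genes of the list 7 were higher and 8 lower with LPS (median 0.09, but -0.16 on TPM as deposited and -0.05 in the authors' log2 values).

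Antigen presentation genes were lower with LPS, 12 of 15 tested with 1 higher (median -0.83, and -1.26 after quantile normalization). Cd74, the invariant chain, measured 5280, 4849 and 4741 scaled TPM with LPS and 14425, 12456 and 12633 with anti-IgM (difference -1.41, SE 0.09, adjusted p = 3.7e-07). H2-Oa and H2-Ob, the pair that inhibits peptide loading, differed by -2.09 and -2.58, the protease Ctsh by -2.03 and the ubiquitin ligase March1, which removes class II from the surface, by -2.11. Ifi30, a lysosomal thiol reductase that interferon induces, was the gene called in the other direction (56.1 ± 2.3 against 21.5 ± 3.4, difference 1.35).

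Several genes of class switching differed between the stimuli. Batf, an AP-1 family factor of class switching, measured 575, 508 and 441 against 84.7, 74.1 and 82.6 (difference 2.64, adjusted p = 1.9e-08). The repair factors Apex1 and Xrcc6, which encodes Ku70, differed by 1.33 and 1.01. Among the 23 genes of switching and mutation 9 were higher and 2 lower with LPS (median 0.37), but 5 were higher and 4 lower on TPM as deposited (median 0.11). Of all genes tested 42.6% were called, 22.2% higher and 20.3% lower, so the total share of this list was near that of all genes. The constant region Ighg2b measured 86.4, 66.6 and 84 against 4.97, 3.65 and 2.58 (difference 4.10), and Ighg3 47.6, 39.6 and 45.6 against 7.11, 7.92 and 6.43 (difference 2.47). Ighg2c differed by 1.79, though reads of such similar constant regions could be shared between genes. Ighd, the IgD heavy chain of naive cells, was lower with LPS (110, 121 and 133 against 1215, 1064 and 1009, difference -3.16, adjusted p = 6.2e-09), while Ighm was not called (2940, 2602 and 2968 against 2725, 2453 and 2599). Of 9 constant regions tested 3 were higher and 3 lower with LPS. All immunoglobulin genes together took 2.01% ± 0.10 of 1000000 TPM with LPS and 3.20% ± 0.10 with anti-IgM (SD, n = 3).

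Zbtb32, a transcriptional repressor of activated lymphocytes, had the largest increase among genes named by rule: 552, 467 and 481 scaled TPM with LPS against 16.8, 14.7 and 16.6 with anti-IgM (difference 4.87, SE 0.20, adjusted p = 2.2e-08), a 29.3-fold distance. Atf3, a stress-induced factor, was listed at 23.2, 26.1 and 28.7 against 0.0413, 0 and 0.162 (difference 4.66). Cd36, a scavenger receptor and marginal zone marker, measured 58.6, 77.3 and 80 against 3.5, 4.73 and 3.85 (difference 3.85). The amino acid transporter Slc7a3 differed by 4.66, the vesicle traffic gene Sytl3 by 4.46, the TGF beta docking receptor Lrrc32 by 3.54 and the protease inhibitor Serpine2 by 3.48. The rule chose these genes without overlap between the stimuli.

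The genes farthest in the other direction, after Egr2, included Nrgn, a calmodulin-binding protein of neurons, at 0.222, 0.116 and 0.746 scaled TPM with LPS and 24.7, 29.9 and 43.6 with anti-IgM (difference -4.62). Ccr6, the receptor for CCL20, measured 10.7, 7.71 and 7.86 against 267, 207 and 238 (difference -4.62, SE 0.18, adjusted p = 1.5e-08). Eno3, an enolase isoform known from muscle, measured 21.9, 22.6 and 24.6 against 335, 304 and 346 (difference -3.77, adjusted p = 8.7e-09). Wfdc17 (-4.43), the inhibitory receptor Sirpa (-4.34), Rasd1 (-4.14), Pglyrp1 (-4.01), Tgfb3 (-3.88), Marcks (-3.86), the chemokine receptor Ccr1 (-3.53) and the Ras exchange factor Rasgef1b (-3.53) were also in this set, chosen by the same rule. Its other members, Btg1, Mxd4 and Ccl4, are described with their lists.

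The plasma cell programme was divided. Prdm1, which encodes Blimp1, was low with both stimuli (1.94, 1.33 and 1.75 against 1.65, 0.975 and 1.3 scaled TPM) and was not called (difference 0.21, SE 0.24, adjusted p = 0.51). Xbp1, the factor of the secretory apparatus, was not called either (difference -0.05), nor was the J chain gene Igj (-0.66), though both were called lower with LPS on TPM as deposited (-0.32 and -0.89), and Irf4 was lower with LPS by a small margin (13.7, 15.3 and 16.2 against 21.6, 19.6 and 19.5, difference -0.40, adjusted p = 0.03), a call lost without any of 5 of the 6 libraries (adjusted p from 0.055 to 0.10). Mzb1, a chaperone of antibody assembly, was higher with LPS (528, 608 and 624 against 184, 167 and 169, difference 1.75, adjusted p = 3.7e-07), as were Eaf2 (1.43) and Fkbp11 (1.39). Sdc1, the plasma cell surface marker CD138, was higher with anti-IgM (4.21, 4.59 and 4.04 against 27.6, 27.9 and 27.2, difference -2.44, adjusted p = 2e-07). Of 26 genes 7 were higher and 9 lower with LPS (median -0.37, but 6 and 14 with a median of -0.58 on TPM as deposited).

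B cell identity genes were lower with LPS in 15 of 26 cases and higher in 0 (median -0.54). The largest differences were in Klf2 (1.92, 2.79 and 1.33 against 5.08, 22 and 24.9 scaled TPM, difference -2.38), a factor of quiescence and trafficking, Mef2c (-2.09) and Ets1 (50.3, 47.6 and 48.6 against 145, 192 and 158, difference -1.72). Mef2c scattered with LPS, at 0.439, 4.34 and 10.6 against 18.7, 19.2 and 16.6, and was not called with the 6 libraries alone (adjusted p = 0.066). The values of Pax5 (-0.04), Bach2 (-0.31) and Bcl6 (-0.59) did not pass the test, although Bach2 (-0.58) and Bcl6 (-0.84) did on TPM as deposited.

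Homing and egress genes were lower with LPS in 13 of 21 cases (median -0.79). S1pr1, the receptor that lets lymphocytes leave tissue, measured 1.29, 2.74 and 1.97 scaled TPM against 29.1, 32.9 and 29.8 (difference -3.43, SE 0.24, adjusted p = 6.3e-07). Gpr183, the oxysterol receptor EBI2, measured 7.88, 8.73 and 9.71 against 56.1, 48.2 and 56.8 (difference -2.49). Cd69, which binds S1PR1 and removes it from the surface, was the single gene of the list that was higher with LPS. Of 20 marker genes of marginal zone and follicular cells 2 were higher and 8 lower with LPS (median -0.42), and Cr2 (0.12) and Fcer2a (-0.07), the classical pair, were not called.

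Inhibitory receptors were higher with anti-IgM: 13 of 18 tested were lower with LPS and 3 higher (median -0.99). Lag3 (1.14, 0.318 and 0.705 against 21.7, 14.3 and 17.2 scaled TPM, difference -3.45) and Pdcd1, which encodes PD-1 (1.43, 1.24 and 2.2 against 24.8, 21.1 and 23.4, difference -3.21), are known as checkpoints of exhausted T cells. Fcrla, an Fc receptor-like protein inside B cells, measured 35.1, 30.9 and 35.1 against 364, 315 and 352 (difference -3.31, adjusted p = 8.7e-09). Fcrl5 was the clearest exception (44, 37.2 and 45.2 against 5.52, 2.85 and 4.17, difference 3.08), followed by Tigit (2.19).

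**Figure D3:**
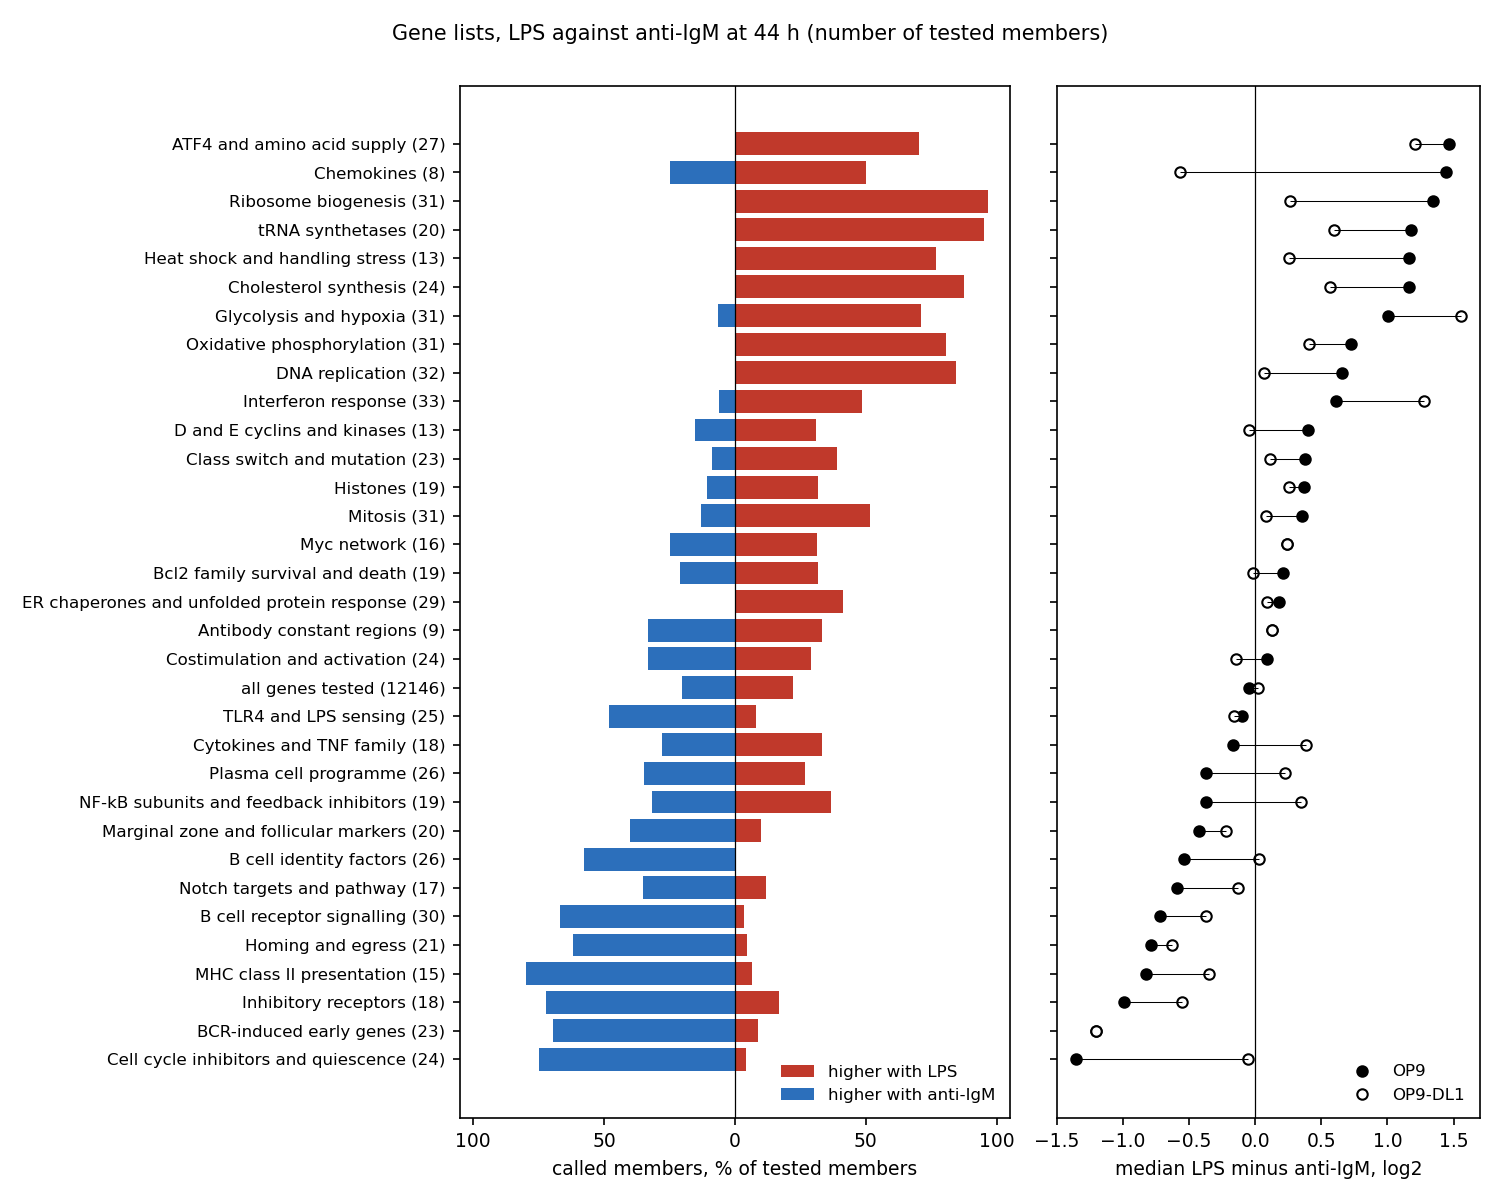
For each of 32 gene lists and for all genes tested, bars on the left give the percentage of tested members called higher with LPS (red, to the right) or higher with anti-IgM (blue, to the left) on OP9, and points on the right give the median log2 difference on OP9 (filled) and OP9-DL1 (open). Ribosome biogenesis (30 of 31 called higher with LPS) and tRNA synthetases (19 of 20) fill the right side, and the early receptor genes, MHC class II genes and cell cycle inhibitors the left.

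Where 0 genes of a list were called in a direction, the limma count at an unadjusted p below 0.05 was also 0 for replication, ribosome biogenesis, respiration, amino acid supply, tRNA synthetases, cholesterol synthesis and heat shock (lower) and for B cell and T and NK cell markers (higher), but 2 for identity factors (higher) and 3 for chaperones of the endoplasmic reticulum (lower). With all 45 libraries in the model fewer members were called in most lists, as for replication (7 higher), cholesterol synthesis (11 higher), mitosis (1 higher, 0 lower) and identity factors (2 lower), while ribosome biogenesis had 25 higher and 0 lower.

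Cell cycle genes leaned to LPS, mainly those of replication and mitosis. The D cyclins Ccnd3 (572, 487 and 461 against 169, 158 and 166 scaled TPM, difference 1.61, adjusted p = 5.1e-07) and Ccnd2 (242, 230 and 223 against 95.2, 108 and 101, difference 1.18) and their kinase Cdk4 (0.83) were higher with LPS, while the E2F factor E2f2 was lower (-1.09). Of 13 genes of the cyclin D and E group 4 were higher and 2 lower (median 0.40, but 3 and 3 with a median of 0.13 on TPM as deposited). DNA replication genes were higher in 27 of 32 cases and lower in 0 (median 0.65, but 16 higher and 1 lower with a median of 0.30 after quantile normalization): Rrm2, a subunit of ribonucleotide reductase, measured 713, 709 and 798 against 270, 276 and 308 (difference 1.38, adjusted p = 2.5e-07), Tyms differed by 1.32, and the origin proteins Orc1 and Orc6 by 1.30 and 1.07. Mitotic genes were higher in 16 and lower in 4 of 31 (median 0.35), led by the kinases Plk1 (218, 190 and 193 against 84.3, 79.9 and 94.7, difference 1.21) and Aurka (1.20), Ccnb1 (1.11) and Cdc20 (1.01). The mitotic split was 10 to 7 with a median of 0.09 on TPM as deposited. Of 19 histone genes 6 were higher and 2 lower (median 0.37, but 3 and 2 with a median of 0.10 on TPM as deposited), and polyA selection takes up little of the replication-dependent histone RNA. The total shares called in the cyclin and histone lists were near the 42.6% of all genes tested (22.2% higher and 20.3% lower).

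Genes that hold cells in quiescence were higher with anti-IgM, 18 of 24 tested with 1 higher with LPS (median -1.35). Btg1, an antiproliferative cofactor of RNA decay, measured 15.3, 17.2 and 8.44 scaled TPM with LPS and 134, 329 and 287 with anti-IgM (difference -4.05, SE 0.37, adjusted p = 6.5e-06), and its relative Btg2 24.2, 25 and 27.2 against 145, 172 and 151 (difference -2.57). Mxd4, which competes with Myc for Max, measured 1.77, 1.26 and 1.09 against 34.3, 38.9 and 39.5 (difference -4.03, adjusted p = 8.1e-08). Ccng2, a cyclin G gene and known FoxO target, measured 6.69, 6.5 and 9.21 against 83.9, 97.2 and 89.1 (difference -3.44). The exception was Cdkn1a, the p21 inhibitor that p53 induces (30.6, 31.2 and 28.4 against 3.5, 5.43 and 6.49, difference 2.37).

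Growth genes were higher with LPS. Myc measured 244, 221 and 256 scaled TPM against 118, 127 and 128 (difference 0.94, SE 0.08, adjusted p = 3.6e-06). Among 31 genes of ribosome biogenesis 30 were called higher and 0 lower (median 1.34), among them Mrto4 (282, 284 and 314 against 75.8, 57.8 and 77.4, difference 2.06), Rrp1b (2.04), Rrp9 (1.83) and the nucleolar phosphoprotein Nolc1 (1.65), and Polr1a was the gene that did not pass (0.54). Srm, the spermidine synthase that Myc activates, differed by 2.13, with replicate 3 lower than the other LPS libraries (1041, 939 and 468 against 139, 188 and 206). The pyrimidine synthesis gene Cad (1.66) and Nme1 (1.56) were also higher, and the Myc network as a whole had 5 genes higher and 4 lower among 16 (median 0.24, but 0.05 on TPM as deposited).

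Amino acid supply under the factor ATF4 was higher with LPS in 19 of 27 genes and lower in 0 (median 1.47). Asns, asparagine synthetase, measured 137, 132 and 181 scaled TPM against 5.01, 4.54 and 4.42 (difference 4.73, SE 0.20, adjusted p = 2.9e-08), a 26.5-fold distance. Pycr1, of proline synthesis, measured 63, 52.9 and 51.3 against 4.44, 4.77 and 5.64 (difference 3.25), and Chac1 and Trib3, known ATF4 targets, differed by 3.19 and 3.05. Atf4 itself differed by 1.12. Of 20 tRNA synthetases 19 were higher and 0 lower (median 1.17), led by Yars (1.75), Nars (1.62), Cars (1.57) and Gars (1.42).

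Cholesterol synthesis genes were higher with LPS in 21 of 24 cases and lower in 0 (median 1.16). Fdps, farnesyl diphosphate synthase, measured 765, 706 and 745 scaled TPM against 103, 93.5 and 109 (difference 2.85, SE 0.09, adjusted p = 6.2e-09). Mvd differed by 2.13, Lss by 1.96 and Acat2 by 1.87. Oxidative phosphorylation genes were higher in 25 of 31 cases and lower in 0 (median 0.72, but 13 higher with a median of 0.27 after quantile normalization), with Cycs, cytochrome c, at 416, 487 and 329 against 118, 111 and 140 (difference 1.72) and Ndufab1, Uqcrq and Cyc1 at 1.53, 1.41 and 1.18. Glycolysis and hypoxia genes were higher in 22 and lower in 2 of 31 (median 1.00): hexokinase Hk2 measured 42.8, 43.2 and 32.2 against 7.71, 6.38 and 9.32 (difference 2.20), the lactate carriers Slc16a3 and Slc16a1 differed by 2.37 and 1.66 and Vegfa by 2.02, while Hif1a (-0.79) and Bnip3l (-0.98) were lower.

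Folding genes were higher with LPS in part. Of 13 heat shock genes 10 were higher and 0 lower (median 1.16), such as the HSP90 cochaperone Fkbp4 (640, 582 and 603 against 187, 185 and 203 scaled TPM, difference 1.66, adjusted p = 6.9e-08), Hsph1 (1.84), Hspe1 (1.73) and Hspd1 (1.52). Chaperones of the endoplasmic reticulum were higher in 12 of 29 cases and lower in 0 (median 0.18), but on TPM as deposited 7 were higher and 7 lower with a median of -0.09. Of all genes tested 42.6% were called, 22.2% higher and 20.3% lower, so the total share of the chaperone list was near that of all genes. Sdf2l1 (454, 455 and 448 against 155, 125 and 160, difference 1.63), Manf (1.59), Hyou1 (1.45) and Hspa5, which encodes BiP (1.07), led that list. In the Bcl2 family 6 of 19 genes were higher and 4 lower with LPS (median 0.21, but -0.06 on TPM as deposited). That total share was somewhat above the 42.6% of all genes tested. Mcl1, a survival protein, was higher with anti-IgM (18.4, 23.5 and 22.8 against 70.8, 75.3 and 68.8, difference -1.69), as was the death gene Bcl2l11, or Bim (-1.38). Bax (1.29), Bcl2 (1.00) and the p53 target Bbc3 (2.12) were higher with LPS, and Bbc3 was uneven there at 53.7, 38.7 and 10.3 against 4.48, 5.62 and 7.21.

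Notch genes were looked at because the plain stroma lacks the added ligand. Dtx1, a Notch-induced regulator, measured 40.8, 35 and 16.2 scaled TPM with LPS and 32.7, 55.9 and 55.1 with anti-IgM and was not called (difference -0.69, but -0.96 and called on TPM as deposited). Hes1, a classical target, was listed at 0, 0.228 and 0 against 0.582, 4.31 and 3.4 (difference -1.64, adjusted p = 0.015, but 0.067 and 0.057 without anti-IgM replicate 2 or 3), and Lfng (-1.27) and the protease Adam10 (-1.17) were lower with LPS too. Of 17 genes tested 2 were higher and 6 lower with LPS (median -0.59), against 1 and 9 on TPM as deposited and 3 and 3 after quantile normalization. The total share called in this list was near the 42.6% of all genes tested (22.2% higher and 20.3% lower). Its highest difference was that of Cdkn1a (2.37), which is also given above among the cell cycle inhibitors.

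Markers of other cells were measured beside these results. All 12 B cell markers were at 1 TPM or more in the 6 libraries, with a sum of 9315 to 10779 TPM with LPS and 24647 to 28266 with anti-IgM, with Cd74 as the highest member (4807 to 5549 and 15439 to 18417 TPM), and 7 of 12 were lower with LPS (median -0.66). Stroma markers summed to 129 to 276 TPM with LPS and 287 to 481 with anti-IgM. Vim was the highest member of this list except in LPS replicate 2, where it was Saa3. It held 41.0, 49.8 and 42.2 TPM of the sums with LPS and 120, 143 and 158 with anti-IgM. Of 19 stroma markers tested from 27 listed, 1 (Saa3, 11.4, 78.3 and 36.6 against 2.49, 1.14 and 0 scaled TPM) was higher and 4 (Ptn, Vim, Col6a1 and Serpinf1) lower with LPS (8 lower on TPM as deposited), while Lum was at 0 in all 6. The calls of Serpinf1 (-0.89) and Col6a1 (-1.30) were lost when some single libraries were left out. The stromal chemokine Cxcl12 ran from 7.0 to 30.6 TPM with LPS and from 48.0 to 94.6 with anti-IgM and was not called (-1.47). The part of stromal RNA in the differences was not tested. T and NK cell markers summed to 62.9 to 79.2 TPM with LPS and 478 to 505 with anti-IgM, nearly all from Lck (31.5, 20.8 and 21.4 against 259, 259 and 260 scaled TPM, difference -3.37) and Cd2 (-1.46). Trac, Klrb1c, Ncr1 and Gzma were at 0 in all 6 libraries and Cd3e and Cd4 at no more than 0.738 and 0.153 TPM. Lower with LPS were 4 of 6 tested markers (median -1.54), which besides Lck and Cd2 were Nkg7 and Cd3g. Nkg7 was listed at 0, 0 and 0 TPM with LPS and at 6.77, 4.85 and 3.23 with anti-IgM (difference -2.26). Cd3g was listed at 0.363, 0 and 0.755 against 3.22, 5.37 and 3.17 TPM (difference -1.62). Myeloid markers summed to 211 to 212 TPM with LPS and 384 to 435 with anti-IgM, mostly Cst3. Of 6 tested 1 was higher (Flt3, 2.14) and 3 lower (Cst3, Cd68 and Emr1) with LPS (median -0.71). Cd68 was listed at 4.44, 3.80 and 5.42 TPM with LPS and at 24.0, 17.9 and 22.1 with anti-IgM (difference -1.74). Emr1 was listed at 0.468, 0.460 and 0.428 against 3.90, 2.34 and 2.46 TPM (difference -1.18). Fcgr1, S100a8, S100a9, Elane and Itgax were at 0. Erythroid and platelet markers summed to 10.6 to 17.6 and 5.69 to 15.1 TPM, with 1 of 2 tested, Hbb-bt, higher with LPS (median 0.91). In bulk RNA, fewer cells of a type and less RNA per cell cannot be told apart.

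The same contrast on OP9-DL1 uses 6 other libraries and called 3272 genes (26.9%), 14.5% higher and 12.4% lower with LPS. Of the genes called on OP9, 2343 were called in the same direction there (45.3% of the OP9 calls and 71.6% of the OP9-DL1 calls) and 43 in the opposite direction. The difference between the stromas was called for 1380 genes (11.4%), 816 (6.72%) with the more positive value on OP9 and 564 (4.64%) with the more negative. On TPM as deposited that split was 494 to 641, the count fell to 910 without OP9 anti-IgM replicate 2, and to 18 in a model with all 45 libraries. Of 31 ribosome biogenesis genes, 29 had a more positive stimulus difference on OP9 by this test, with a median of 1.34 on OP9 and 0.26 on OP9-DL1. Mrto4 measured 270, 247 and 278 scaled TPM with LPS and 190, 166 and 161 with anti-IgM on OP9-DL1. Myc measured 182, 166 and 185 against 167, 161 and 174 there (OP9 minus OP9-DL1 difference 0.86, adjusted p = 0.0012). DNA replication genes were more positive on OP9 for 19 of 32 (median 0.65 against 0.07), cholesterol genes for 12 of 24 (1.16 against 0.57) and heat shock genes for 9 of 13 (1.16 against 0.25).

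Cell cycle inhibitors had the reverse shift, more negative on OP9 for 11 of 24 (median -1.35 against -0.05). Ccng2 measured 30.2, 34.8 and 29 scaled TPM with LPS and 46.5, 42.2 and 37.9 with anti-IgM on OP9-DL1 (difference between stromas -3.02, adjusted p = 2e-05). Tsc22d3, the glucocorticoid-induced leucine zipper gene, changed sign: 20.5, 17.4 and 15.8 against 56.8, 60.6 and 60.4 on OP9, and 27.1, 33.6 and 28.6 against 11, 12.4 and 10.8 on OP9-DL1 (difference between stromas -2.99, adjusted p = 9.9e-06). Glycolysis and hypoxia genes were more negative on OP9 for 11 of 31 (median 1.00 against 1.55), with Mgarp (-3.33) and Ddit4 (-3.31) outside and inside that list. Ltb, lymphotoxin beta, measured 91.4, 79.3 and 72.9 against 53.8, 48.9 and 49.9 on OP9 and 149, 194 and 136 against 15.6, 7.57 and 9.49 on OP9-DL1 (difference between stromas -3.14), and its call on OP9 (0.66, adjusted p = 0.025) was lost on TPM as deposited (0.39, adjusted p = 0.16). Ccl22 measured 4.97, 3.21 and 4.82 against 5.61, 4.9 and 5.73 on OP9-DL1, where it was not called (difference between stromas 2.84, adjusted p = 0.00028). Ccl2 (2.83), Ccl4 (2.34), Plac8 (2.14) and the calmodulin regulator Pcp4 (4.21) were, among called genes with a mean of 10 scaled TPM or more, the others with the most positive values, and in Pcp4 and Ccl4 the OP9-DL1 anti-IgM libraries were the high ones (18.6, 24.6 and 23.9, and 240, 206 and 182). Plac8 was also highest in the OP9-DL1 anti-IgM libraries, with a mean of 514 scaled TPM against 134 with anti-IgM on OP9. Egr2 (0.36, adjusted p = 0.59), Zbtb32 (0.11, adjusted p = 0.85) and Ighd (0.06, adjusted p = 0.84) did not pass the test of a difference between the stromas.

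**Figure D4:**
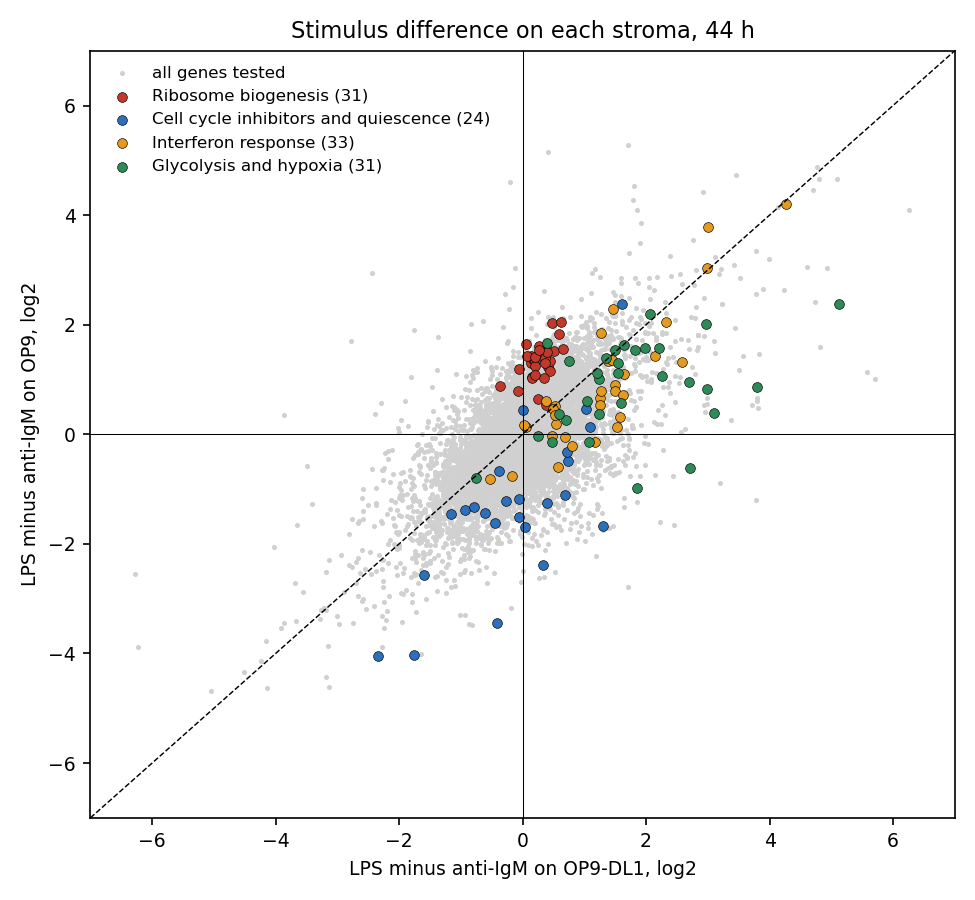
Each point is a gene, with the LPS minus anti-IgM difference in log2(scaled TPM + 1) on OP9-DL1 (horizontal) and on OP9 (vertical), and 4 lists in colour; the dashed line marks equal differences. Ribosome biogenesis genes lie above the line near 0 on the horizontal axis (median 1.34 on OP9 and 0.26 on OP9-DL1), and cell cycle inhibitors below it (median -1.35 and -0.05).

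The other OP9 time points give the levels of these genes before and after 44 h, as a description without a test. All 3 anti-IgM libraries at 20 h and replicate 3 of each OP9 group at 68 h have Actb above 10000 TPM and stand apart. Ighg2b measured 25.8, 49.8 and 53.3 scaled TPM with LPS at 20 h and 252, 205 and 173 at 68 h, so its level with LPS was higher in every library at each later time, while anti-IgM libraries stayed between 2.58 and 14.2. Zbtb32 was already at 148, 190 and 266 with LPS at 20 h and at 604, 557 and 172 at 68 h. Ccr6 with anti-IgM was at 49.4, 52.5 and 47.2 at 20 h and at 254, 283 and 66.6 at 68 h. Egr2 with anti-IgM was at 22.5, 97.9 and 72.5 at 20 h and 36.2, 37.3 and 9.17 at 68 h, against 1.45 to 7.75 and 0.348 to 4.48 with LPS. The mean log2 level of the 31 ribosome biogenesis genes was 7.29 to 7.38 with LPS and 5.96 to 6.09 with anti-IgM at 44 h, but 5.61 to 5.64 and 5.63 to 5.73 at 68 h, where the stimuli were nearly level. Unstimulated cells at 68 h had 5.04 to 5.17. For the 33 interferon genes the unstimulated level at 68 h was 4.10 to 4.41, between the 4.45 to 4.79 of LPS and the 3.60 to 3.68 of anti-IgM at that time. Ifit1 in unstimulated cells measured 47.5, 32.7 and 78 scaled TPM, above every OP9 library of either stimulus at 68 h. The unstimulated libraries also held 5810 to 23918 TPM of stroma markers, against 236 to 488 in the stimulated OP9 libraries at 68 h, and the part of stromal RNA in these levels was not tested.

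**Figure D5:**
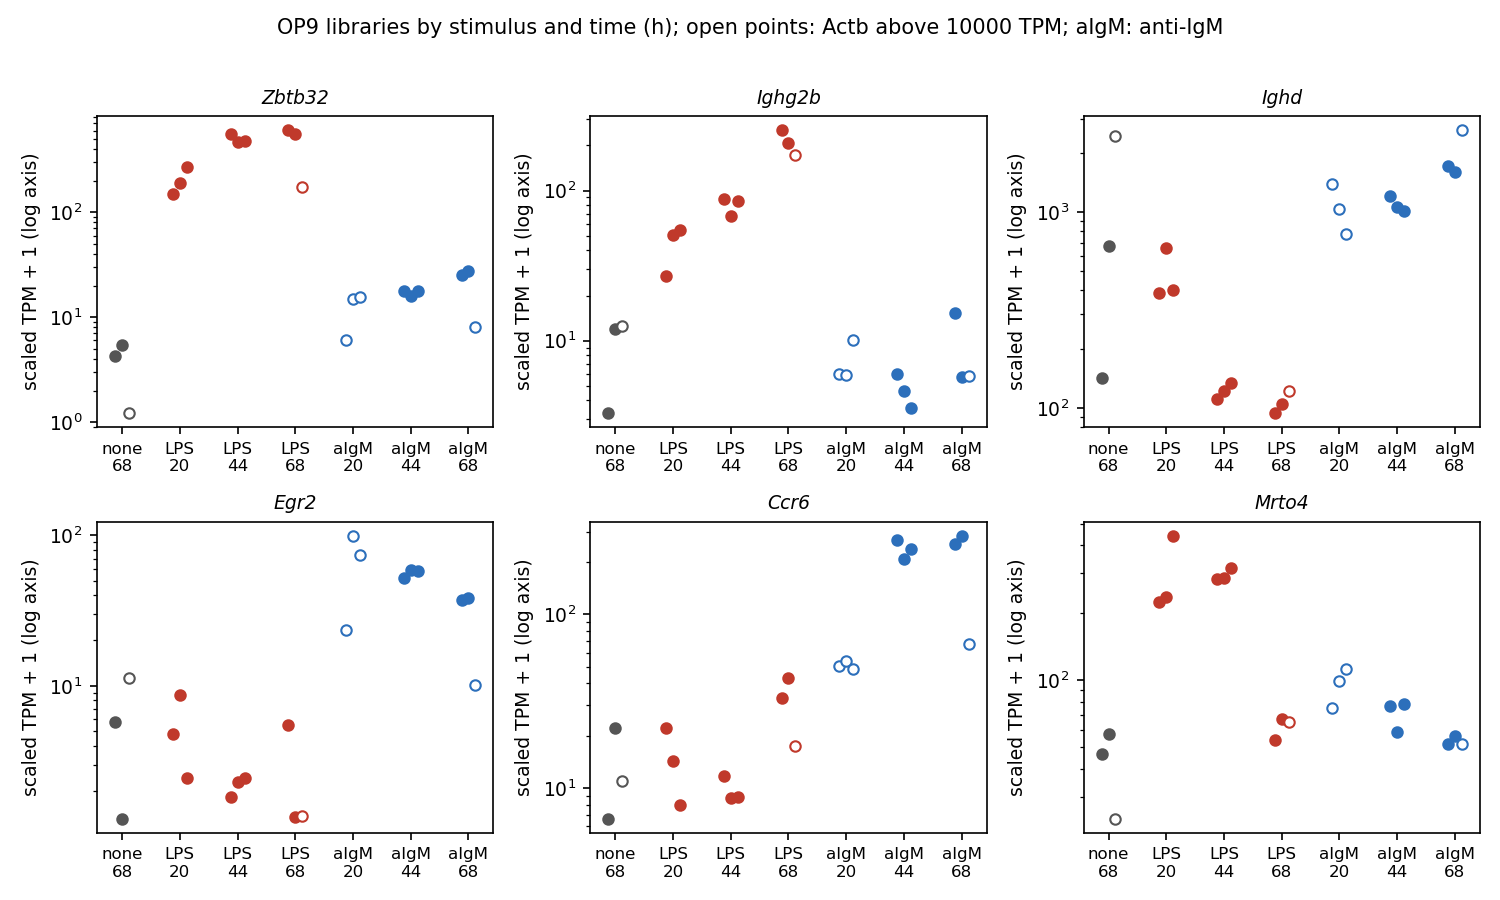
Scaled TPM + 1 on a log axis for 6 genes in the 21 OP9 libraries by stimulus and time in hours, with open points for libraries whose Actb exceeds 10000 TPM. Ighg2b with LPS is higher at each later time (25.8 to 53.3, 66.6 to 86.4 and 173 to 252), and Mrto4 with LPS is at 53.2 to 66.1 at 68 h, near the 50.8 to 55.2 of anti-IgM.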

How the data were processed

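PolyA RNA of sorted viable cells was sequenced, and 6 libraries at 44 h on OP9 were compared. The authors deposited TPM per gene symbol without a further scaling between libraries. Their other deposited table holds log2 values, recovered here as the log2 of estimated reads with 0.5 added, per 1000000 of the library's reads with 1 added, and depths were read from that table. Per the submitters' processing notes, kallisto, limma, GRCm38 and mm10 were used. Per the labels' protocols, libraries were made with a SMART-seq kit and Nextera XT. The transcript set and the instrument of each library are not given in the sources used here.

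TPM were divided by median-ratio size factors over 45 libraries (0.991 to 1.10 for LPS and 1.22 to 1.29 for anti-IgM), which were thus unequal between stimuli, and log2 was taken with a pseudocount of 1. The 12146 of 30317 symbols that reached 1 TPM in 3 or more of the 12 libraries at 44 h were tested in limma 3.58.1 (R 4.3.3) with 4 group means, a mean-variance trend and robust moderation, and Benjamini-Hochberg adjustment over all of them. A permutation of 3 against 3 libraries cannot give an exact p below 0.1. In simulated data with 12146 genes and 200 changed, 56% of changes of log2 1 and 93% of changes of log2 2 were called, with 11 unchanged genes called. The simulation used independent noise and changed far fewer genes than the 42.6% called in the data. Its shares therefore do not give the power of this comparison.

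Genes were named by rule: key genes of both pathways and of B cell fate, the 15 largest called differences in each direction (no overlap, a mean of 10 scaled TPM or more, no V, D or J segments or unnamed models), up to 4 called members with the largest difference in each list, and the 5 genes with the largest difference between stromas in each direction. Another 20 genes were named after their values were seen: Atf4, Bcl2, Bnip3l, Bst2, Cd40, Cxcl12, Gbp2, Hif1a, Ifi30, Jun, Ly96, Oas1a, Polr1a, Serpinf1, Stat2, Syk, Tigit, Tnf, Tnfaip3 and Zbp1. The comparison, members and lists were chosen with earlier results of these data known, so counts over lists are descriptions without a test. Promoters are RefSeq's on GRCm38.p6, from 250 bases before to 50 after the start, and 8368 of 12146 tested genes had one. Alternatives were other scalings, the authors' log2 table, immunoglobulin removal, pseudocounts, filters, a replicate block, other library sets and leaving out each library. A few of the genes chosen by the rule are left out of the text.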

Additional observations from a re-analysis of the deposited data

Results flagged for a closer look

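The genes given here differ in their stimulus difference between the stromas, tested in limma as the LPS minus anti-IgM difference on OP9 minus that on OP9-DL1, in log2(scaled TPM + 1), with an adjusted p below 0.05. With 11.4% of all genes tested passing the same test, each is given as a value alone. Among growth and division genes with a more positive value on OP9 were Nolc1 (1.59), Rrp1b (1.57), Mrto4 (1.44), Rrp9 (1.24), Cad (1.30), Nme1 (0.79), Myc (0.86), Orc1 (1.26), Rrm2 (0.97), Tyms (0.75), Cdk4 (0.75), Ccnd3 (0.79), Aurka (0.70), Ccnb1 (0.61) and Apex1 (1.19). Metabolic and folding genes on that side were Asns (1.27), Slc16a1 (1.26), Cycs (1.12), Fdps (1.02), Acat2 (1.01), Lss (0.94), Mvd (0.78), Hspd1 (1.30), Hspe1 (1.27), Hsph1 (1.24), Fkbp4 (1.17), Manf (0.70), Sdf2l1 (0.67) and Hspa5 (0.64). Chemokine, signalling and other genes were Pcp4 (4.21), Ccl22 (2.84), Ccl2 (2.83), Ccl4 (2.34), Ccl3 (2.01), Plac8 (2.14), Cd36 (1.93), Tnip3 (1.37), Nr4a1 (0.75), Mzb1 (0.69), Bst2 (0.58), Batf (0.51) and Bax (0.51).

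More negative on OP9 were the quiescence and identity genes Ccng2 (-3.02), Tsc22d3 (-2.99), Klf2 (-2.71), Mxd4 (-2.26), Ets1 (-2.05) and Btg2 (-0.98). So were the E2F factor E2f2 (-1.05) and Fcer2a (-1.79), of the marginal zone and follicular markers. Receptors, presentation and trafficking genes on that side were Ccr6 (-1.48), Ccr1 (-1.29), S1pr1 (-1.47), Gpr183 (-0.84), Tnfrsf18 (-1.47), Cd40 (-0.68), Cd79a (-0.71), Cd74 (-0.94), H2-Ob (-1.20), H2-Oa (-0.96), March1 (-1.31), Ctsh (-0.52), Fcrla (-1.04), Itpkb (-1.38) and Sigirr (-1.16). The others were Mgarp (-3.33), Ddit4 (-3.31), Ltb (-3.14), Bnip3l (-2.82), Slc16a3 (-2.75), Pglyrp1 (-2.37), Ighg2b (-2.16), Tgfb3 (-1.60), Trib3 (-1.56), Igj (-1.36) and Bcl2 (-1.08). Of these, Bnip3l, a mitophagy receptor, was lower with LPS on OP9 (-0.98) and higher on OP9-DL1 (1.85).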

How the results depend on the processing

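The count of 5172 called genes ran from 4689 to 5494 under the other scalings, filters, pseudocount and moderation tried and with the 6 libraries alone, and 1478 genes were called with all 45 libraries in the model, where the difference between the stromas was called for 18 genes in place of 1380. Leaving out a replicate gave 4312 to 4770 calls, and 910 to 1249 for the difference between the stromas, the lowest of each without anti-IgM replicate 2 on OP9. The deviations of same-numbered replicates from their group means had correlations across genes of -0.10, 0.02 and -0.14. With 3 replicates per group such values cannot decide whether the samples were paired. The replicate block gave 5001 and 1206 calls. Of 174 called genes named here, with Nkg7, Cd3g, Cd68 and Emr1 not counted, 134 kept direction and call under every setting. In the model of all 45 libraries 40 lost the call: Adam10, Aurka, Bbc3, Bcl2, Ccl2, Ccnd2, Cd180, Cdc20, Cdk4, Col6a1, E2f2, Ets1, Fkbp11, Hbb-bt, Hes1, Hif1a, Hk2, Hspa5, Hsph1, Ighg2c, Irf4, Jun, Ltb, Ly96, Mef2c, Myc, Nr4a1, Nr4a3, Orc6, Plac8, Plk1, Ptn, Serpinf1, Sigirr, Slc16a3, Stat2, Syk, Tlr4, Tnfaip3 and Vim (adjusted p in limma from 0.055 to 0.66). The cause was not tested. Values that changed sign were all of genes not called: Cr2 was -0.15 on TPM as deposited and -0.023 in the authors' log2 values, and Ighm was -0.14 and -0.016 there and -0.085 after quantile normalization. Pax5 was 0.047 after quantile normalization and ran from -0.11 to 0.070 when single replicates were left out, above 0 without LPS replicate 2 or anti-IgM replicate 1 (0.036). Fcer2a ran from -0.19 to 0.030, above 0 without LPS replicate 1. Low genes depend on the pseudocount, as Il6 (5.77 at 0.1), Tnip3 (4.01), Cd80 (2.19) and Hes1 (-3.88) show. TPM keep no counts, so depth gives no interval for a single library.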
